A study of Mus musculus with 18 samples.

Results

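The BCL-2 family genes described here are 10 regulators of the mitochondrial route to cell death, taken by symbol from the deposited table of counts: Mcl1, Bcl2l1, Bcl2a1a, Bcl2a1b and Bcl2a1d, whose proteins hold death back, Bax and Bak1, whose proteins carry it out, and Bid, Bcl2l11 and Pmaip1, whose proteins start it. All 10 were counted, among 17941 gene symbols in the table. Of these, 9 were among the 10104 genes with enough counts to be tested, and Bcl2a1a was not. The counts are of RNA from sorted splenic neutrophils of female NZBWF1/J mice, F1 hybrids used as a model of lupus, which appears in them as they grow older. No mouse was treated. There were 6 biological replicates at 14 weeks of age, 6 at 20 weeks and 6 at 26 weeks, with 1 library each. Each replicate is taken here as 1 mouse. Cells were sorted from total splenocytes as live single cells that carried Ly6b, CD11b and Ly6G and an intermediate level of Ly6C. Every mouse is of the same strain, so age and stage of disease cannot be told apart, and no disease score per mouse was used here.

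The BCL-2 family decides whether the outer membrane of the mitochondrion stays closed. BAX and BAK form pores in it, the survival proteins MCL-1, BCL-XL (the product of Bcl2l1) and A1 (the product of the Bcl2a1 genes) bind and hold them, and the BH3-only proteins BIM (Bcl2l11), NOXA (Pmaip1) and BID occupy the survival proteins or switch BAX and BAK on. Neutrophils are short-lived and are known for their need of MCL-1, a protein with a very short half-life, and for expressing A1.

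The libraries held between 5546624 and 17256379 counts and between 8119 and 13164 genes with counts. Levels are given as CPM (counts scaled to the same total in each library, with TMM factors), and as CPM per kilobase of exon (CPM/kb) where genes are set beside each other. A gene was called where the adjusted p of edgeR's quasi-likelihood F test was under 0.05, with the 18 libraries in 1 fit. Comparisons of pairs of ages share libraries, so they are not independent of one another. The 11 neutrophil markers checked all had counts at each age, with summed levels between 118500 and 179400 CPM at 14 weeks, between 44810 and 109500 CPM at 20 weeks and between 141600 and 284200 CPM at 26 weeks. Of them, 8 were called lower and 1 (Csf3r) higher at 20 weeks than at 14 weeks, and 5 higher and 3 lower at 26 weeks than at 14 weeks. At 26 against 20 weeks 7 were higher and 1 was lower. In these pools of sorted cells, fewer cells of a type and less RNA per cell cannot be told apart. The library of 20-week replicate 3 stood apart: it held the fewest genes with counts, and it correlated with its 20-week fellows at a median of 0.756, against medians of 0.828 to 0.913 for the remaining 17 libraries within their ages.

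Mcl1 RNA was the most abundant of the 10 per exon length at each age. It averaged 249.3 ± 62.7 CPM/kb at 14 weeks, 408.4 ± 85.78 CPM/kb at 20 weeks and 276.8 ± 80.21 CPM/kb at 26 weeks (SD, n = 6 at each age), and no library of any other member of the family reached the lowest Mcl1 library of its age. Bid came second at 14 weeks, with 43.84 ± 3.607 CPM/kb, and its range did not overlap that of Bcl2l1 below it. At 20 weeks Pmaip1, with 69.79 ± 21.76 CPM/kb, stood above Bid, with 51.3 ± 6.361 CPM/kb, but their ranges overlapped. At 26 weeks Bid, with 38.14 ± 7.705 CPM/kb, and Pmaip1, with 18.31 ± 16.31 CPM/kb, followed Mcl1 and overlapped. From the second place down at 26 weeks, and among Bax, Bcl2a1b, Bcl2l1 and the genes below them at 20 weeks, each gene overlapped the next in the order. Bcl2a1a was the lowest of the 10 at each age, with means of 0.147, 0.7875 and 1.145 CPM/kb at 14, 20 and 26 weeks. Reads of the Bcl2a1 copies can match several genes, so the places of these copies in the order are uncertain.

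**Figure D1:**
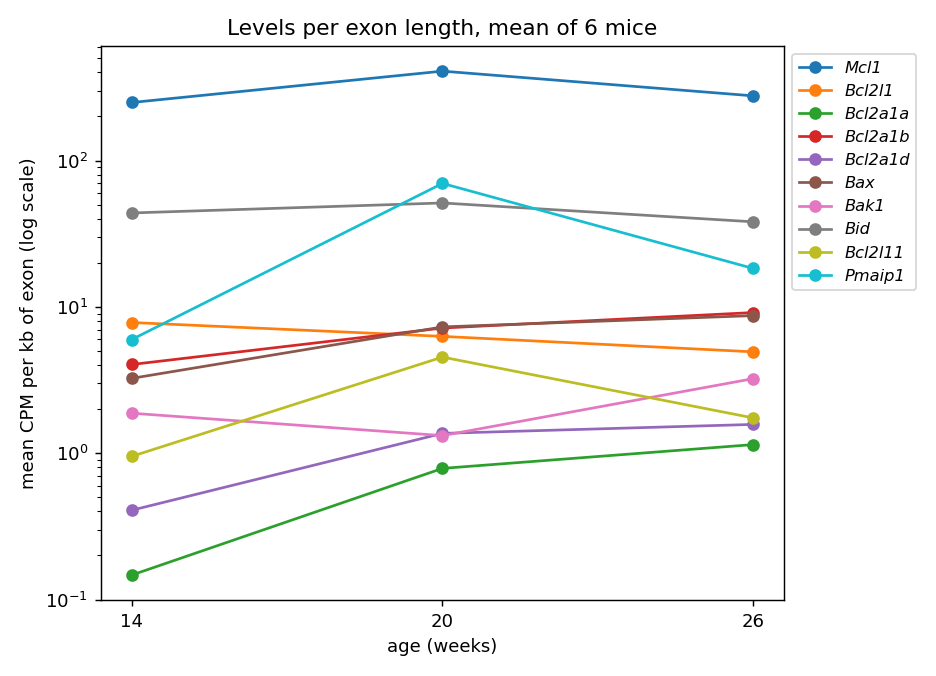
CPM per kilobase of exon (log axis) of each of the 10 genes against age in weeks, as means of 6 mice joined by lines. Mcl1 lies above the other genes at each age, and Pmaip1 moves up to the level of Bid at 20 weeks.

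At 20 weeks 4 of the 9 tested genes were higher than at 14 weeks: Mcl1, Bax, Bcl2l11 and Pmaip1, that is 1 survival gene, 1 pore-forming gene and 2 BH3-only genes. None of the 9 was called lower by edgeR, DESeq2 or limma, and 0 were lower at an unadjusted p under 0.05. Over all genes tested, 10.2% were called in this comparison, 4.93% higher and 5.27% lower. The median log2 change was 0.83 over the 9 tested genes and -0.02 over all genes. At 26 weeks against 14 weeks 1 of the 9 was called, Bax, which was higher, where 11.0% of all genes were called (higher for 5.45%, lower for 5.54%). At 26 weeks against 20 weeks 1 was called, Bid, which was lower, where 16.0% of all genes were called (higher for 8.03%, lower for 7.98%). The medians of these last comparisons were 0.87 and -0.35 over the 9 tested genes, and 0.04 and 0.05 over all genes. A test of any change over the ages called Mcl1, Bax, Bcl2l11 and Pmaip1, where 23.0% of all genes were called.

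**Figure D2:**
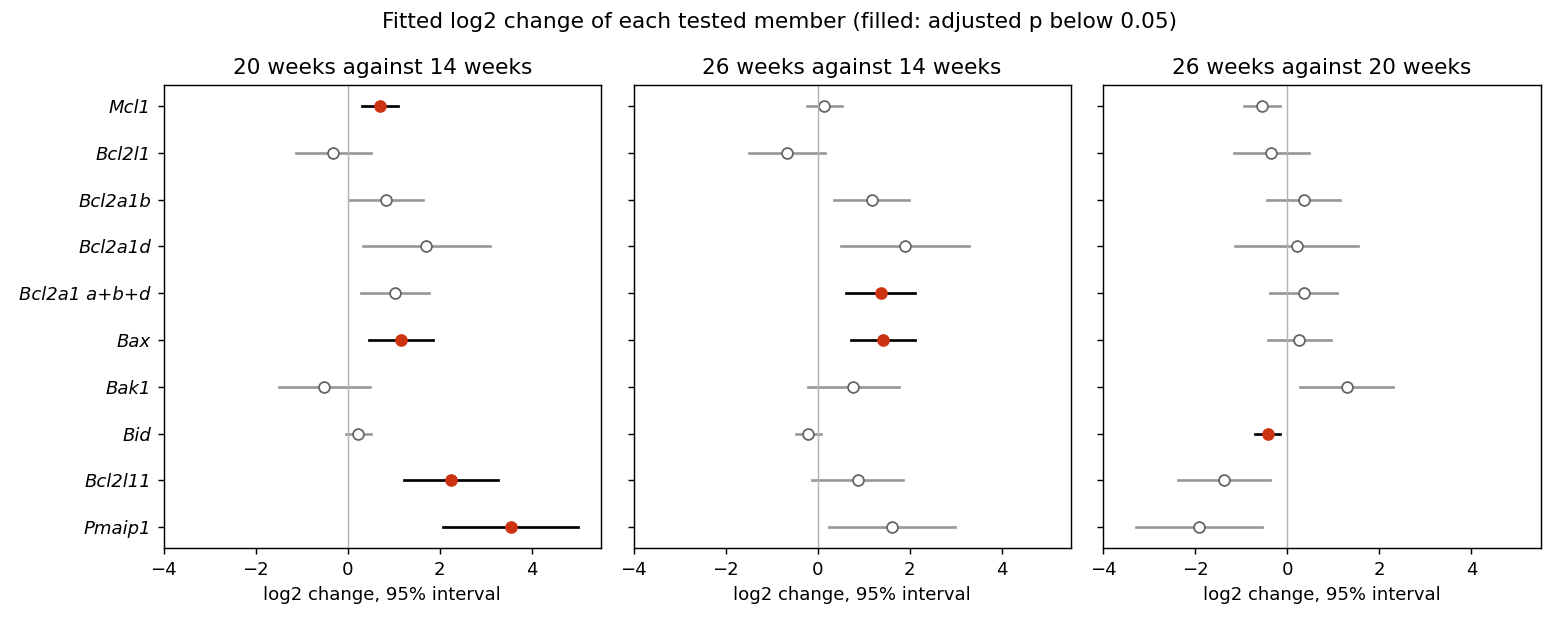
Log2 change of each tested gene, and of the summed Bcl2a1 counts, in the comparisons of ages, as points with bars for the 95% interval from the SE. The intervals use the normal distribution, so they are narrower than the F test would give. The points of Pmaip1 and Bcl2l11 for 20 against 14 weeks, at 3.54 and 2.25, lie farthest above 0.

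Among the survival genes, Mcl1 had a lowest, median and highest level of 645.5, 778.4 and 1134 CPM at 14 weeks, 1074, 1364 and 1805 CPM at 20 weeks, and 578.5, 885.9 and 1350 CPM at 26 weeks. Of the 20-week libraries, 5 of 6 stood above every 14-week library, and replicate 1 lay within the 14-week range. Mcl1 rose at 20 weeks against 14 weeks, by a log2 change of 0.71 ± 0.20 (SE; adjusted p = 0.0269). The call depended on single libraries: without any one of 14-week replicates 1, 4, 5 and 6 or 20-week replicates 2, 4 and 6 the log2 change was between 0.62 and 0.70 and the adjusted p between 0.0512 and 0.074. At 26 weeks Mcl1 overlapped the 14-week range, with a log2 change of 0.15 ± 0.20 (adjusted p = 0.738; 95% interval from the SE, -0.24 to 0.54). Against 20 weeks the log2 change at 26 weeks was -0.56 ± 0.20, which was not called by edgeR (adjusted p = 0.0609). It was called without any one of 20-week replicate 1 or 26-week replicates 3 and 4, at an adjusted p between 0.0227 and 0.0437. With all libraries it was called lower by DESeq2 (adjusted p = 0.0245) and limma (0.0288), and by edgeR with a stricter filter that asks for 10 CPM in 6 libraries (0.0466) or a correction for gene length (0.0222).

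Bcl2l1, which encodes BCL-XL, was not called by edgeR in any comparison of ages. Its lowest, median and highest levels were 24.84, 35.14 and 46.05 CPM at 14 weeks, 2.011, 30.38 and 44.68 CPM at 20 weeks, and 13.98, 21.9 and 34.82 CPM at 26 weeks. The 20-week low was the library that stood apart, with 21 counts, far under the other libraries of that age. At 26 weeks against 14 weeks 5 of 6 libraries lay below every 14-week library, with a log2 change of -0.66 ± 0.42 (adjusted p = 0.38). Without 20-week replicate 3, which belongs to neither age but enters the fit, the log2 change was -0.67 ± 0.22 and the adjusted p 0.0482, and limma called Bcl2l1 lower with all libraries (-0.72, adjusted p = 0.0434). The remaining log2 changes of Bcl2l1 were -0.31 ± 0.42 at 20 against 14 weeks (adjusted p = 0.728) and -0.35 ± 0.42 at 26 against 20 weeks (adjusted p = 0.642).

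The Bcl2a1 genes are near-identical copies on chromosome 9, and the mice keep several of them in working order as sources of A1. Their coding sequences, 516 nt each in GENCODE M21 on GRCm38, are 97.9% identical between Bcl2a1a and Bcl2a1b, 98.6% between Bcl2a1a and Bcl2a1d, and 98.8% between Bcl2a1b and Bcl2a1d. The first 100 coding bases, within exons at chr9:88957051-88957150 on the plus strand, chr9:89199360-89199459 on the plus strand and chr9:88731620-88731719 on the minus strand, are shown because 7 of the 12 positions that differ among the copies fall there. Capitals mark those positions.
Bcl2a1a: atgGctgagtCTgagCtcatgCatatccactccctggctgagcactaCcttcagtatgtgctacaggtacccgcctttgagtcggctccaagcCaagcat
Bcl2a1b: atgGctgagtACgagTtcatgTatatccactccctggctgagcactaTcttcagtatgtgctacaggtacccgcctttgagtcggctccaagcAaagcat
Bcl2a1d: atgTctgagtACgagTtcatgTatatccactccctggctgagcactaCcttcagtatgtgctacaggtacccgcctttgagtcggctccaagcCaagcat
Every pair of copies differs within this stretch, so a read that covers all of it can tell them apart. Elsewhere in the transcripts a read of 100 nt can match more than 1 copy. Of all 100-nt windows of their transcripts, 43.5% in Bcl2a1a, 56.8% in Bcl2a1b and 54.7% in Bcl2a1d occur exactly in another gene's transcript. The sources used here do not say how the counting treated such reads, so the level of a single copy is uncertain. The sum of the 3 is given as well, and it would also be too low if the counting left such reads out.

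The summed Bcl2a1 level was higher at 26 weeks than at 14 weeks. Its lowest, median and highest values were 2.943, 3.743 and 4.711 CPM at 14 weeks, 6.995, 7.62 and 8.793 CPM at 20 weeks, and 3.834, 10.08 and 13.97 CPM at 26 weeks. Every 20-week library and 5 of 6 26-week libraries stood above all 14-week libraries. The log2 change was 1.37 ± 0.38 at 26 weeks against 14 weeks (adjusted p = 0.0257), and 1.02 ± 0.38 at 20 weeks against 14 weeks, which was not called by edgeR (adjusted p = 0.0961). Without any one of 14-week replicates 4 and 6 or 26-week replicates 1 and 2 the 26-week change was between 1.27 and 1.32, at an adjusted p between 0.0537 and 0.068. It was also not called with a correction for gene length (0.77, adjusted p = 0.287) or with no filter on low counts (1.37, adjusted p = 0.0888). Between 26 and 20 weeks the sum differed by a log2 change of 0.35 ± 0.38 (adjusted p = 0.602; 95% interval, -0.39 to 1.08).

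Within the sum, most counts were assigned to Bcl2a1b: 221 of 253 counts (87.35%) at 14 weeks, 394 of 515 (76.5%) at 20 weeks and 430 of 570 (75.44%) at 26 weeks. Bcl2a1b lay between 2.745 and 3.942 CPM at 14 weeks, between 5.221 and 6.799 CPM at 20 weeks and between 3.005 and 11.61 CPM at 26 weeks. Bcl2a1d stayed at or under 2.294 CPM in every library. Neither of them was called alone by edgeR: the log2 changes of Bcl2a1b were 0.83 ± 0.41 at 20 weeks and 1.18 ± 0.41 at 26 weeks against 14 weeks (adjusted p = 0.238 and 0.0747), and those of Bcl2a1d were 1.71 ± 0.70 and 1.91 ± 0.71 (adjusted p = 0.141 and 0.0914). Without 20-week replicate 3 or without 26-week replicate 4, Bcl2a1b was called higher at 26 weeks than at 14 weeks, at an adjusted p of 0.0473 or 0.0309. With all libraries it was called so by DESeq2 (1.22, adjusted p = 0.00359) and limma (adjusted p = 0.02), and by edgeR with only those ages in the fit (1.19, adjusted p = 0.0496). Bcl2a1a had 0 to 4 counts a library at 14 weeks, with 3 of 6 libraries at 0, then 3 to 12 counts at 20 weeks and 2 to 18 counts at 26 weeks, too few to pass the filter on low counts.

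Bax, the pore former that moves from the cytosol to the mitochondrion, was higher at both later ages than at 14 weeks. Its lowest, median and highest levels were 3.758, 4.857 and 6.925 CPM at 14 weeks, 7.555, 10.79 and 15.94 CPM at 20 weeks, and 6.943, 14.07 and 20.53 CPM at 26 weeks. Every library of 20 and of 26 weeks stood above all 14-week libraries. The log2 change was 1.17 ± 0.35 at 20 weeks (adjusted p = 0.041) and 1.42 ± 0.36 at 26 weeks (adjusted p = 0.014), each against 14 weeks. The 26-week call held without any single library (adjusted p of at most 0.0397) and was lost with a correction for gene length (0.90, adjusted p = 0.147). The 20-week call was lost in 12 of 18 such fits, without any one 14-week library, without 20-week replicate 1, 2, 5 or 6, or without 26-week replicate 2 or 6, with log2 changes between 1.05 and 1.27 and adjusted p between 0.0507 and 0.0893. It was also lost with no filter (adjusted p = 0.101), only those ages in the fit (0.0528) and the replicate block (0.0823). Between 26 and 20 weeks Bax differed by a log2 change of 0.25 ± 0.35 (adjusted p = 0.694).

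Bak1, the pore former that sits in the mitochondrial membrane, was not called by edgeR in any comparison. It had a lowest, median and highest level of 2.913, 4.922 and 5.367 CPM at 14 weeks, 1.397, 1.894 and 7.092 CPM at 20 weeks, and 3.523, 8.391 and 9.801 CPM at 26 weeks. At 20 weeks 4 libraries lay below every 14-week library, while replicates 3 and 5 had 5.4 and 7.1 CPM. The log2 change at 20 against 14 weeks was -0.51 ± 0.51 (adjusted p = 0.62), at 26 against 14 weeks 0.78 ± 0.51 (adjusted p = 0.398) and at 26 against 20 weeks 1.29 ± 0.51 (adjusted p = 0.0936). Without 20-week replicate 3 or 5 the last of these was called, at an adjusted p of 0.0471 or 0.0325, and DESeq2 and limma called it with all libraries (1.31 and 1.66, adjusted p = 0.0258 and 0.0289). The span of Bak1, introns included, lies wholly within that of Ggnbp1, a gene on the opposite strand. Of the 100-nt windows of Bak1 transcripts, 9.4% occur in those of Ggnbp1. The sources used here give no strand setting for the counting, so reads of these shared stretches may not be separable. Ggnbp1 had 0 to 86 counts a library.

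Set against Bak1 in the same library, Bax per exon length was 120.0%, 181.1% and 267.3% of Bak1 (lowest, median and highest) at 14 weeks, 286.4%, 746.6% and 1743% at 20 weeks, and 163.6%, 272.2% and 383.8% at 26 weeks. Every 20-week library thus had a higher share of Bax over Bak1 than any 14-week library. These ratios rest on few counts of Bak1 and were not tested.

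Among the BH3-only genes, Pmaip1, whose product NOXA binds mainly MCL-1 and A1, had the largest log2 change of the 9 tested genes at 20 against 14 weeks. Its lowest, median and highest levels were 0, 12.58 and 35.38 CPM at 14 weeks, 98.36, 205.5 and 250.5 CPM at 20 weeks, and 6.076, 31.36 and 123.3 CPM at 26 weeks. Every 20-week library stood above all 14-week libraries, of which replicate 1 was at 0 counts. Pmaip1 rose at 20 weeks by a log2 change of 3.54 ± 0.75 against 14 weeks (adjusted p = 0.00471), and the call held without any single library (adjusted p of at most 0.0141). The 26-week libraries were spread between both other ages, with 5 of 6 below every 20-week library and 2 above every 14-week library. At 26 weeks the log2 change was 1.62 ± 0.70 against 14 weeks (adjusted p = 0.156) and -1.92 ± 0.70 against 20 weeks (adjusted p = 0.066), and neither was called by edgeR. Without 14-week replicate 1 or 26-week replicate 3 the change at 26 against 20 weeks was called, at an adjusted p of 0.0158 to 0.0272. With all libraries it was called lower by limma (adjusted p = 0.0325), and by edgeR with the stricter filter (0.038) or the length correction (0.0281), as it was with only those ages in the fit (0.0272).

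**Figure D3:**
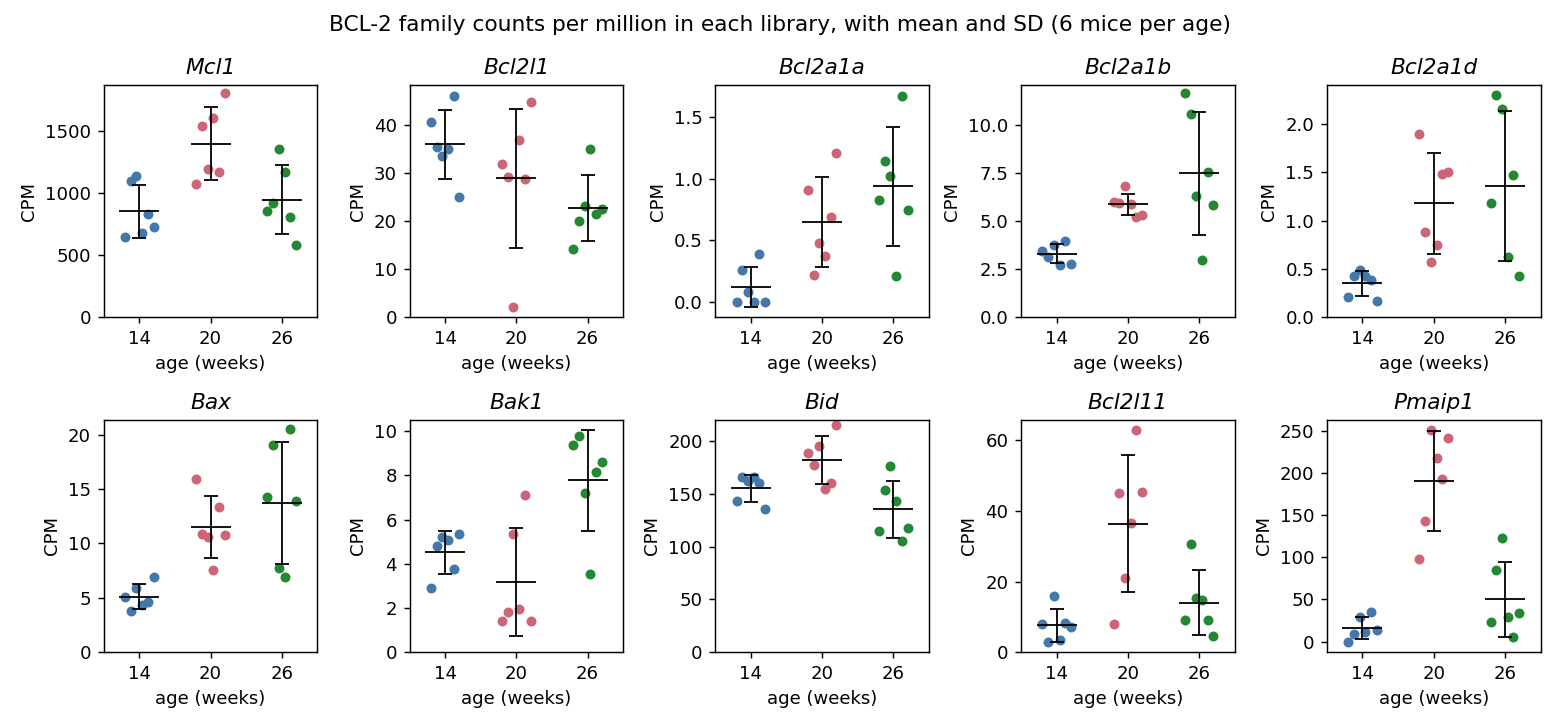
CPM of each of the 10 genes in every library at 14, 20 and 26 weeks, 1 point per mouse, with the mean and SD over 6 mice. All 20-week points of Pmaip1, Bax, Bcl2a1b and Bcl2a1d lie above all 14-week points, and those of Bid overlap. Bcl2a1b and Bcl2a1d were not called by edgeR in that comparison. The share of all genes without overlap was not counted.

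Bcl2l11, whose product BIM binds all the survival proteins and can switch on BAX and BAK, also rose at 20 weeks. Its levels were 2.99, 7.598 and 15.88 CPM at 14 weeks, 7.971, 40.77 and 62.85 CPM at 20 weeks, and 4.465, 12.08 and 30.76 CPM at 26 weeks (lowest, median and highest). Of the 20-week libraries 5 of 6 stood above every 14-week library, and replicate 1, with 7.971 CPM, lay within the 14-week range. The log2 change was 2.25 ± 0.52 at 20 against 14 weeks (adjusted p = 0.00833), and the call held without any single library (adjusted p of at most 0.0236). At 26 weeks the log2 change was 0.87 ± 0.50 against 14 weeks (adjusted p = 0.325) and -1.38 ± 0.51 against 20 weeks (adjusted p = 0.0694). Without 20-week replicate 1 or 26-week replicate 2 the last of these was called, at an adjusted p between 0.0243 and 0.0303, and it was called lower with DESeq2 (0.0274) and the stricter filter (0.0488).

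Bid, which caspase-8 cuts to link death receptors to the mitochondrion, was called in 1 comparison. Its lowest, median and highest levels were 135.9, 161.0 and 166.2 CPM at 14 weeks, 154.5, 183.3 and 215.0 CPM at 20 weeks, and 105.6, 130.7 and 176.7 CPM at 26 weeks. Bid fell at 26 weeks against 20 weeks, where 5 of 6 libraries lay below every 20-week library, by a log2 change of -0.43 ± 0.14 (adjusted p = 0.0387). The call was lost in 9 of 18 fits without a single library, those without 14-week replicate 3 or 5, 20-week replicate 1, 2, 3 or 6, or 26-week replicate 1, 5 or 6, with log2 changes between -0.43 and -0.36 and adjusted p between 0.0511 and 0.0968. It was also lost with limma (0.064), no filter (adjusted p = 0.10) and only those ages in the fit (0.104). Against 14 weeks the log2 change was 0.23 ± 0.14 at 20 weeks (adjusted p = 0.355) and -0.20 ± 0.14 at 26 weeks (adjusted p = 0.429). The end of Bid overlaps 913 nt of Bcl2l13 on the other strand, and 15.1% of its 100-nt windows occur there.

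Within a library, NOXA and BIM transcripts were set against that of MCL-1, which both proteins bind. Pmaip1 per exon length was 0%, 2.242% and 5.322% of Mcl1 at 14 weeks, 11.45%, 16.86% and 26.36% at 20 weeks, and 0.9412%, 5.386% and 11.55% at 26 weeks (lowest, median and highest). Bcl2l11 was 0.1159%, 0.4225% and 0.5961% of Mcl1 at 14 weeks, 0.3158%, 1.018% and 2.295% at 20 weeks, and 0.3285%, 0.4853% and 1.428% at 26 weeks. The ranges of the Pmaip1 ratio did not overlap between 20 and 14 weeks, and those of Bcl2l11 did. The ratios are of RNA, not of protein, and were not tested.

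**Figure D4:**
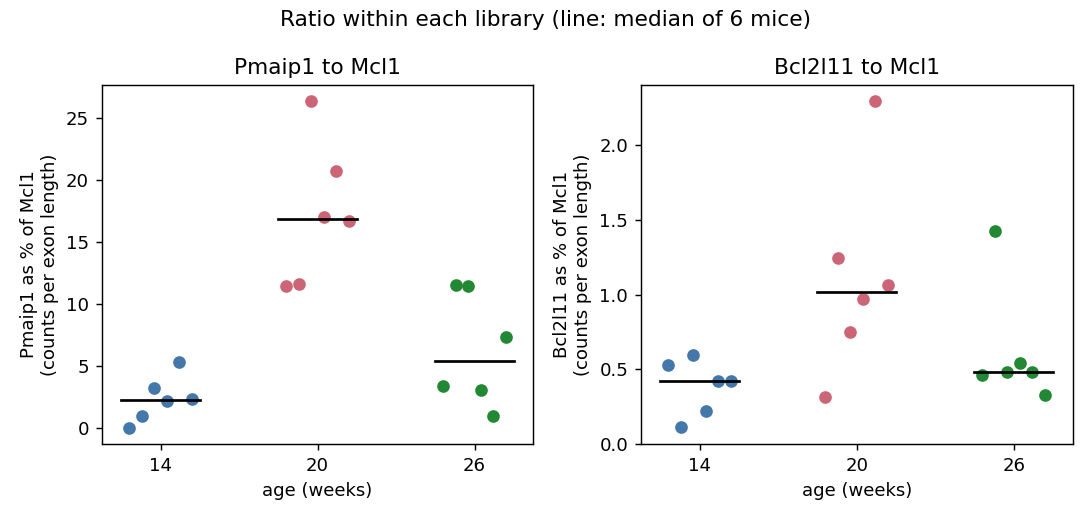
Pmaip1 and Bcl2l11 per exon length as a percent of Mcl1 in the same library, against age in weeks, with 1 point per library and a line at the median of 6 mice. The 20-week Pmaip1 points lie between 11.45% and 26.36%, above all 14-week points, which reach 5.322%.

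Markers of other cell types differed between the ages. Monocyte and macrophage markers summed to 561.6 to 1176 CPM at 20 weeks, against 199.9 to 513.3 CPM at 14 weeks. All 3 tested of the 10 on that list (Adgre1, Csf1r and Cd68) were called higher at 20 than at 14 weeks and lower at 26 than at 20 weeks, and Cx3cr1, Ccr2, C1qa and C1qb were at 0 in every 14-week library. Plasma cell markers summed to 343.1 to 1141 CPM at 20 weeks, against 128.5 to 184.5 CPM at 14 weeks, and both tested of the 6 (Jchain and Xbp1) were called higher, with Sdc1 at 0 at 14 weeks. At 26 weeks the sums were 212.4 to 514.0 CPM for monocytes and macrophages and 177.6 to 312.9 CPM for plasma cells, whose tested markers were both called higher at 26 than at 14 weeks. B cell markers summed to 2.777 to 80.77 CPM at 20 weeks, against 1.769 to 23.37 CPM at 14 weeks, and eosinophil markers to 32.46 to 76.95 CPM, against 5.827 to 20.67 CPM, with 1 gene of each list called higher. T cell markers summed to 49.99 to 102.1 CPM at 20 weeks, against 117.1 to 148.0 CPM at 14 weeks and 93.15 to 380.3 CPM at 26 weeks. Of the T cell genes tested, Cd3d was called higher at 26 than at 20 weeks (1.51 ± 0.29, adjusted p = 0.00159), and Cd3g was not. Erythroid markers reached 219.5 CPM in a 26-week library, against at most 2.081 CPM at 14 weeks. Jchain itself ranged from 0 to 0.5125 CPM at 14 weeks, from 2.78 to 906.3 CPM at 20 weeks and from 0 to 67.36 CPM at 26 weeks. The plasma cell sums at 14 weeks thus came almost wholly from other genes of that list. So did the sum of the 20-week library with 2.78 CPM of Jchain. The part of these cell types in the levels of the BCL-2 family was not tested. Without the library that stood apart, the same count of 4 family genes was called at 20 against 14 weeks, with log2 changes of 3.45 ± 0.76 for Pmaip1, 2.37 ± 0.52 for Bcl2l11, 1.19 ± 0.34 for Bax and 0.75 ± 0.21 for Mcl1. Without it 3 genes were called at 26 against 14 weeks, Bax with Bcl2a1b and Bcl2l1.

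The sequence around the start of transcription was examined for 9 of the 10 genes, all but Pmaip1. These 9 have 12 RefSeq promoter entries on GRCm38.p6, each of 250 bases before and 50 after a start. A FOXO motif, GTAAACA on either strand, was found in 1 of them, an entry of Bcl2l11, with its first base at -227, and the second Bcl2l11 entry held none. Over 32851 promoters 3.65% held it. An E-box, CACGTG, which reads the same on both strands, was found in the Bax entry alone, 2 times, and 7.15% of all promoters held at least 1. These entries, at chr2:128125788-128126087 on the plus strand and chr7:45466849-45467148 on the minus strand, are shown for genes called higher at 20 weeks, with the FOXO motif and the E-boxes in capitals.
Bcl2l11: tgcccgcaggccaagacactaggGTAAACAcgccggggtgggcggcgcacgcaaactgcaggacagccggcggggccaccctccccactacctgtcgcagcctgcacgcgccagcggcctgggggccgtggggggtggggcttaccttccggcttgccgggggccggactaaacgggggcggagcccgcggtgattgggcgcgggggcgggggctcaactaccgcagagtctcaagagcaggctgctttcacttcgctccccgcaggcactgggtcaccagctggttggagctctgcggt
Bax: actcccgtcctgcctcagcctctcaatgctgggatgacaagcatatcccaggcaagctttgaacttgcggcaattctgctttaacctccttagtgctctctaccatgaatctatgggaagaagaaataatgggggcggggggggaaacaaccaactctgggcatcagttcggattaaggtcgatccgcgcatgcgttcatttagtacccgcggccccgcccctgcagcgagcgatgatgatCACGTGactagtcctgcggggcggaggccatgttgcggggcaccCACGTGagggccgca
Of the other motifs searched on both strands, TTCNNNGAA, the core of STAT sites, was in none of the 12 entries and in 8.30% of all promoters, the NF-kB consensus was in 1 entry, of Bcl2l1, and in 8.46%, and CCAAT was in both Bcl2l11 entries and in 37.41%. The motifs do not overlap one another in the windows shown. A match is only a match of letters.

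Other genes of the same machinery were taken from lists made for this comparison, whose counts stand beside shares of 10.2%, 11.0% and 16.0% of all genes called at 20 against 14, 26 against 14 and 26 against 20 weeks. Of 15 further BCL-2 family genes 6 were tested, and Bnip3, a mitochondrial BH3-like gene known for its rise in low oxygen, was the 1 called. Bnip3 averaged 59.19 ± 17.51 CPM at 20 weeks and 20.79 ± 10.58 CPM at 14 weeks (SD, n = 6 each; log2 change 1.51 ± 0.34, adjusted p = 0.00704), and fell at 26 against 20 weeks (-1.38 ± 0.34, adjusted p = 0.00848). None of the 6 was called at 26 against 14 weeks, where 1 had an unadjusted p under 0.05, DESeq2 called 1 and limma 2. Bcl2 itself reached at most 10.1 CPM and was at 0 in 5 of 18 libraries.

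Downstream of the pore, 15 of 16 genes of mitochondrial release and execution were tested. At 20 against 14 weeks 1 was higher and 2 were lower, at 26 against 14 weeks 1 was higher, and at 26 against 20 weeks 4 were higher and 1 was lower. The count at 26 against 14 weeks depended on the setting and ranged from 0 to 8 over the 9 others. There 6 genes had an unadjusted p under 0.05, and DESeq2 called 2 higher and 1 lower. In the same comparison limma called 4 higher and 4 lower, where it called 2633 of all 10104 genes. Vdac1, a channel of the outer membrane, averaged 33.74 ± 5.719 CPM at 20 weeks and 77.77 ± 4.916 CPM at 14 weeks (SD, n = 6 each; log2 change -1.20 ± 0.16, adjusted p = 0.000198), and rose at 26 against 20 weeks (1.33 ± 0.16, adjusted p = 9.91e-05). Vdac2, a related channel that binds BAK, rose at 26 against 20 weeks (1.01 ± 0.19, adjusted p = 0.00159), as Birc3, an inhibitor of apoptosis, fell to 88.4 ± 14.03 CPM at 26 weeks, against 177.2 ± 61.16 CPM at 20 weeks (adjusted p = 0.00227). Htra2, a protease released with cytochrome c, rose at 20 against 14 weeks (0.75 ± 0.19, adjusted p = 0.015). Cycs, cytochrome c itself, rose at 26 against 14 weeks (1.68 ± 0.51, adjusted p = 0.0391), a call lost in 9 of 18 fits without a single library, with no filter (adjusted p = 0.11), with the replicate block (0.0788) and with the length correction (0.0854).

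Of 8 genes that control the turnover of MCL-1 protein 7 were tested, and edgeR called none of them in any comparison. At an unadjusted p under 0.05 there were 1 at 20 against 14 weeks, 0 at 26 against 14 weeks and 2 at 26 against 20 weeks. DESeq2 called 0, 0 and 2 of them in those comparisons, and limma 1, 2 and 0.

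Receptors for neutrophil survival signals were all tested, 8 of 8, and 2 were higher at 20 against 14 weeks, 1 was lower at 26 against 14 weeks and 4 were lower at 26 against 20 weeks. Over all genes 10.2%, 11.0% and 16.0% were called in these comparisons, and 1 of 8 is near that share. Csf3r, the receptor for G-CSF and also 1 of the neutrophil markers, averaged 4689 ± 1267 CPM at 20 weeks and 2027 ± 807.2 CPM at 14 weeks (log2 change 1.21 ± 0.30, adjusted p = 0.012), and fell at 26 against 20 weeks (-1.70 ± 0.30, adjusted p = 0.000915). Ifngr1, a chain of the interferon-gamma receptor, rose by 1.08 ± 0.22 at 20 against 14 weeks (adjusted p = 0.00375) and had a log2 change of -0.99 ± 0.22 at 26 against 20 weeks (adjusted p = 0.00421). Its partner Ifngr2 was lower at 26 weeks against both other ages, by -0.57 ± 0.12 against 20 weeks (adjusted p = 0.00274) and by -0.41 ± 0.12 against 14 weeks (adjusted p = 0.0281). The Ifngr2 call against 14 weeks was lost in 7 of 18 fits without a single library, and with upper quartile factors (adjusted p = 0.0961), no filter (0.0906), the stricter filter (0.081) and the length correction (0.208). Ifnar1, a chain of the type I interferon receptor, was lower at 26 against 20 weeks (-1.04 ± 0.33, adjusted p = 0.0358; lost in 8 of 18 such fits, with only those ages in the fit, 0.0747, and with the replicate block, 0.0634).

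Of 14 transcription factors known to act on the family, all tested, 1 was higher at 20 against 14 weeks, 1 higher and 2 lower at 26 against 14 weeks, and 1 higher and 4 lower at 26 against 20 weeks. The 1 of 14 at 20 against 14 weeks is near the 10.2% of all genes, and the shares of all genes in the other comparisons were 11.0% and 16.0%. Nfkb2, an NF-kB subunit, rose at 20 against 14 weeks (1.22 ± 0.30, adjusted p = 0.0119) and fell at 26 against 20 weeks (-1.23 ± 0.30, adjusted p = 0.0075), as did Rela at 26 against 20 weeks (-0.79 ± 0.19, adjusted p = 0.0072). Stat3, which acts downstream of G-CSF, averaged 234.6 ± 51.86 CPM at 26 weeks and 408.6 ± 62.88 CPM at 20 weeks (-0.80 ± 0.15, adjusted p = 0.00119), and was also lower at 26 than at 14 weeks (-0.58 ± 0.15, adjusted p = 0.0143; lost in 3 of 18 fits without a single library and with the length correction, 0.169). Stat5b was lower at 26 weeks by -1.10 ± 0.22 against 20 weeks (adjusted p = 0.00207) and by -0.72 ± 0.22 against 14 weeks (adjusted p = 0.0396). The Stat5b call against 14 weeks was lost in 9 of 18 such fits, and with RLE (adjusted p = 0.0569) or upper quartile factors (0.0669), no filter (0.0731), the stricter filter (0.0533) and the length correction (0.327). Foxo3, a factor known to drive Bcl2l11 in other cells, rose at 26 against 14 weeks (1.57 ± 0.44, adjusted p = 0.026; lost in 7 of 18 such fits and with the length correction, 0.0521). At 20 against 14 weeks, where Bcl2l11 was called higher, Foxo3 was not called (0.28 ± 0.43, adjusted p = 0.774). A link between Foxo3 and Bcl2l11 was not tested.

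Genes were ranked by the Pearson correlation of their log2 CPM with that of Mcl1 over the 18 libraries, among 4226 genes. The closest 5 were Slc2a1, a glucose transporter (r = 0.938), Dusp1, a MAP kinase phosphatase (0.912), Btg1 (0.91), Clec7a, the beta-glucan receptor Dectin-1 (0.909), and Arrdc3 (0.908). For the summed Bcl2a1 counts the closest 5 were Timm17b (0.925), Tctex1d2 (0.914), the interferon-induced Ifitm2 (0.913), the immunoproteasome gene Psmb8 (0.91) and Brk1 (0.897). Slc2a1 averaged 144.0 ± 41.61 CPM at 20 weeks, against 56.9 ± 34.12 CPM at 14 weeks, and Ifitm2 averaged 755.1 ± 286.2 CPM at 26 weeks, against 270.8 ± 56.09 CPM at 14 weeks. The points share the ages, the libraries and their depth, and the correlations are descriptions.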

How the data were processed

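RNA-seq counts came from 18 libraries of sorted splenic neutrophils, 6 mice at each of 3 ages; groups and replicate numbers were taken from the titles. The authors deposited raw read counts per gene symbol, and the submitters' processing notes list DESeq, DESeq2 1.12.3, HTSeq 0.6.1, STAR 2.4.2a, Trimmomatic 0.32 and the build GRCm38.p4. Libraries were made from 1 ng of cDNA and read from 1 end, 100 nt, per the labels' protocols. The sources used here give no annotation, no strand setting, no treatment of reads with several matches and no batch. The reference genome is of another strain than these mice, which may affect how reads of variable genes matched.

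Tests used edgeR 4.0.16 (R 4.3.3) on the deposited counts: TMM factors, low counts removed with filterByExpr by age, 1 robust quasi-likelihood fit with a term for age and no other, and Benjamini-Hochberg adjustment over 10104 genes. SE is the log2 change over the square root of F. The members, lists and tests were chosen with earlier results of these data known. All members are named, and of each list the called genes of smallest p, at most 4 per pair of ages, of which 1 is not reported here; like genes needed a mean log2 CPM of 4. Exon lengths, positions and coding sequences are from GENCODE M21. Counts are reads without molecular identifiers. Replicates differed by more than counting error (mean chi-square per gene 26.1 to 182 over pairs of the same age). Nothing in the labels says more of the mice than their separate titles, so p-values measure the spread between these samples. The replicate numbers of the titles differ from the numbers in the submitters' library names, so the same number need not join related mice. Same-numbered libraries did not deviate together (correlations of -0.0527 to 0.136), which cannot show whether mice were paired in another way. The numbers were not taken to pair libraries, and the replicate block is a block of title numbers only. Alternatives were RLE and upper quartile factors, DESeq2 1.42.0, limma 3.58.1 (voom with quality weights), no filter, a stricter filter (10 CPM in 6 libraries), only the ages compared, a replicate block, a correction for gene length, and each library left out.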

Additional observations from a re-analysis of the deposited data

How the results depend on the processing

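Pmaip1 and Bcl2l11 kept their 20 against 14 week calls under all 9 other settings and all 18 fits without a single library, and Mcl1 under the 9 settings. The Bax call at 20 weeks was lost with no filter, only the ages compared and the replicate block, its 26-week call with the length correction (0.90, adjusted p 0.147), and the Bid call with limma, no filter and only the ages compared. Without single libraries, family genes called ranged from 2 to 4 at 20 against 14 weeks, 1 to 3 at 26 against 14, 0 to 3 at 26 against 20, and 3 to 5 for any change; all genes called ranged from 702 to 1263, 652 to 1544 and 1141 to 1911; the summed Bcl2a1 change ranged from 0.96 to 1.09, 1.27 to 1.53 and 0.23 to 0.51. Family genes called at 26 against 14 weeks were 2 with DESeq2, 3 with limma, 2 with only those ages and 0 with the length correction; at 26 against 20 weeks they were 4 with DESeq2, 3 with limma, 0 with no filter, 4 with the stricter filter and 3 with the length correction. All genes called were 1563 with DESeq2 at 20 against 14 weeks, and 2633 with limma, 1710 with only those ages and 461 with the length correction at 26 against 14. The summed Bcl2a1 change at 20 against 14 weeks was called with DESeq2 (1.06); at 26 against 14 it was not with no filter (1.37), the replicate block (1.30, adjusted p 0.0726) or the length correction (0.77). The length correction reversed the 26 against 20 week changes of the Bcl2a1 sum (-0.39), Bcl2a1b (-0.42), Bcl2a1d (-0.36) and Bax (-0.33), and limma that of Bcl2a1d (-0.065), none of them called; the cause was not tested. The correction put the median log2 change of all genes at 0.19, 0.02 and -0.18, and the higher share of calls at 73.8%, 39.7% and 26.1%, against 48.3%, 49.6% and 50.2% (20 against 14, 26 against 14, 26 against 20 weeks); upper quartile factors gave 62.0% at 26 against 14. The depth limits Bcl2a1a, Bcl2a1d and Bak1, with few counts a library.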

Other observations

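Pmaip1 was added to the ranking of like genes after its values were seen. The 5 genes closest to it over the 18 libraries were Zfp263 (Pearson r = 0.907), the activating or inhibiting receptor gene Cd244 (0.901), the transcription factor Foxp1 (0.883), the ganglioside activator Gm2a (0.877) and Treml4 (0.874). Cd244 averaged 198.9 ± 46.3 CPM at 20 weeks and 29.16 ± 20.99 CPM at 14 weeks, and Gm2a averaged 1612 ± 503.9 CPM at 20 weeks and 288.5 ± 130.5 CPM at 14 weeks (SD, n = 6 each). At 26 weeks Cd244 averaged 68.64 ± 50.75 CPM and Gm2a 497.5 ± 321.0 CPM, and Treml4 averaged 31.95 ± 28.77 CPM at 26 weeks and 39.83 ± 3.428 CPM at 20 weeks. The libraries share their ages and depth, and no test was made of these correlations.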
